A study of Drosophila melanogaster with 4 samples.

Results

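The small nuclear RNA (snRNA) genes of Drosophila melanogaster were followed in nascent RNA of S2 cells. The members were the genes whose symbol begins with snRNA:, without snRNA:7SK, and were sorted by their U number. The rule was met by 30 of the 16612 genes with GRO-seq values, which fell into 11 classes. U1 had 5 genes, U2 6, U4 3, U5 7 and U6 3, and U3, U7, U11, U12, U4atac and U6atac had 1 each.

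The study profiled untreated S2 cells, a macrophage-like line of embryonic origin (tissue label Embryo 20-24h), and contrasted no treatment or genotype. There were 2 libraries per assay: replicates 1 and 2 of 5'GRO-seq, and a pair of GRO-seq libraries that keep their column names Sample3 and Sample4 here. Both assays let engaged polymerases in nuclei extend their RNA with a bromouridine nucleotide and capture the labelled RNA. GRO-seq sequences all of it, whereas 5'GRO-seq removes uncapped ends first, so that reads start where capped RNA starts. The labels do not say whether libraries came from separate cultures, so their differences may be technical only.

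snRNAs are short, stable RNAs of the splicing machinery. U1 binds the 5' splice site of an intron and U2 the branch point, and U4, U5 and U6 then join as a preassembled particle. A second, rarer machinery splices a small group of introns with U11, U12, U4atac and U6atac in the places of U1, U2, U4 and U6, and shares U5. Most snRNA genes are transcribed by RNA polymerase II and some, among them those of U6, by RNA polymerase III. Both kinds use a proximal sequence element bound by the SNAPc complex. U7 acts in the 3' end processing of replication-dependent histone mRNA. U3, although named among the snRNAs in the table, is a guide RNA of ribosomal RNA processing. Fly U1, U2, U4, U5 and U6 genes occur in several closely similar copies.

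The 30 rows stood at 25 distinct positions of the dm3 genome. snRNA:U1:21D, snRNA:U1:95Ca and snRNA:U1:95Cb shared one position on chromosome 3R (19685189 to 19685352, minus strand). snRNA:U6:96Aa, snRNA:U6:96Ab and snRNA:U6:96Ac shared another on 3R (20381810 to 20381916, plus strand), and snRNA:U2:34ABb and snRNA:U2:34ABc one on 2L (13215839 to 13216030, plus strand). These 8 rows hold 3 pairs of values, each of which belongs to a position and not to a named gene. The row of snRNA:U1:21D carries the cytological band 21E2 beside its position on 3R, and a RefSeq gene table of Release 6, a later assembly, places this gene on 2L. That table held 29 of the 30 accessions, at 29 different positions. Counts of members below are therefore given over the 25 positions. The way the authors treated reads that match several near-identical copies is not given in the sources used here, so the split of reads among copies of a class is uncertain.

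The 5'GRO-seq libraries held 13979543 and 6710787 reads, in which the authors called 6782 and 9387 start sites in replicates 1 and 2. GRO-seq values were deposited as FPKM, reads per kilobase of gene span scaled to library size. Read totals recovered from these values, to which they are scaled, were 6572487 (Sample3) and 2474817 (Sample4). Reads summed over all genes were higher, at 6948229 and 2978679, so a percentage of the total is not a share of the summed gene reads. The 25 positions held 17205 reads (0.262% of the total) in Sample3 and 4061 (0.164%) in Sample4. S2 cells descend from blood cell precursors, and 9 of 10 hemocyte markers reached a mean of 1 FPKM, with NimC1 below at 0.842 FPKM. Of 4 neuron and muscle markers only elav did, at 10.1 FPKM. This was above the hemocyte markers eater (7.51 FPKM), He (4.12 FPKM) and Pxn (3.21 FPKM) as well as NimC1. A mean of at least 1 FPKM was reached by 8888 of all 16612 genes.

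The mean nascent RNA level at snRNA positions ran from rank 24 of all genes down to 0. The median of the 25 positions was 139 FPKM in Sample3 and 31.1 FPKM in Sample4, against 1.98 and 1.38 FPKM over all 16612 genes. Over 273 snoRNA genes the medians were higher still, at 672.5 and 131 FPKM, so a high median was not particular to snRNA genes. A mean of at least 100 FPKM was reached by 12 of 25 positions (48%), and by 2.83% of all genes. At the other end, 7 positions had at most 5 reads in each library, and 1 of them, snRNA:U2:38ABa, was listed at 0 in both. A value of 0 in both libraries occurred in 25.2% of all genes. Intervals of values above 0 are 95% exact Poisson intervals of the recovered reads. For a value of 0 the limit given is the FPKM of 3 reads in that library. Both cover counting error only.

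**Figure D1:**
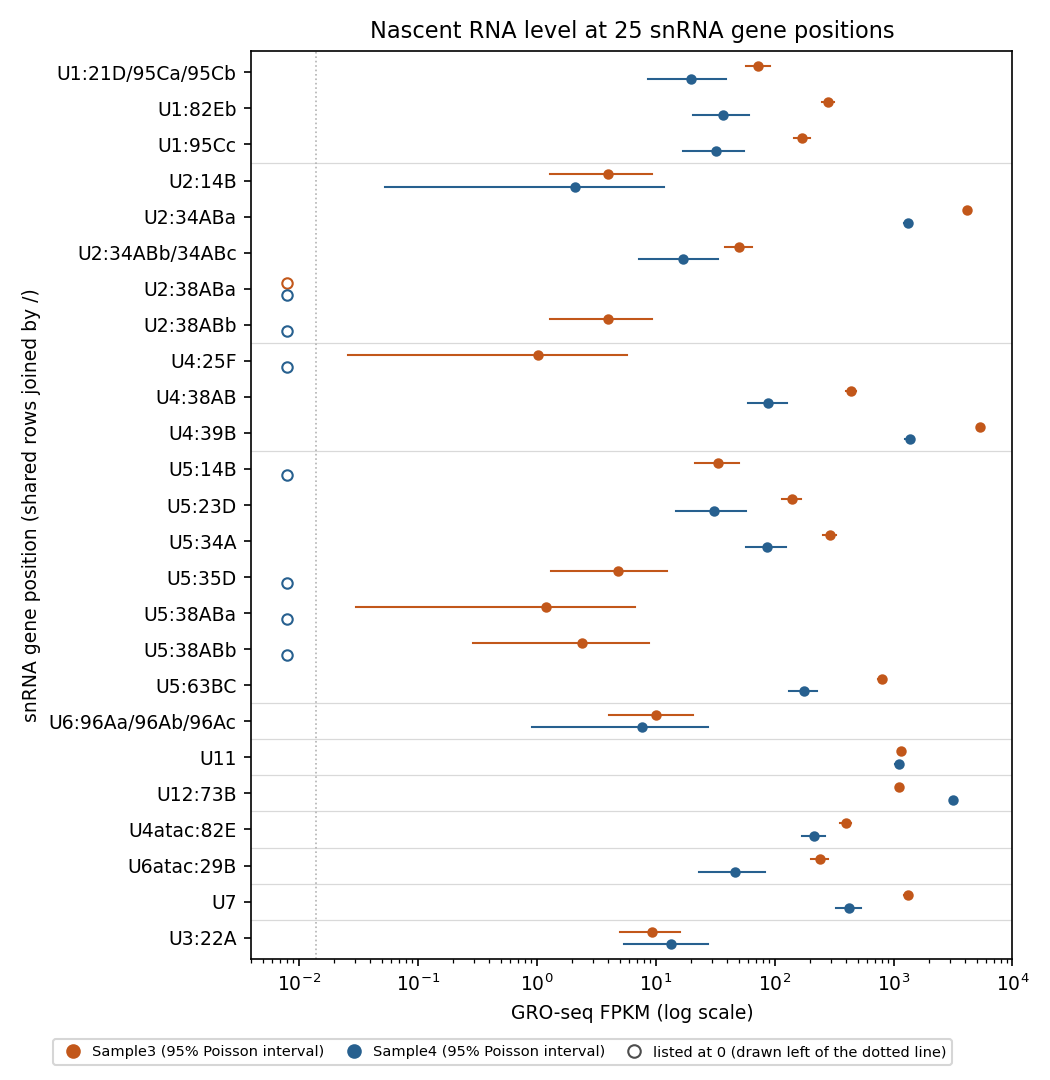
GRO-seq FPKM (log scale) at the 25 snRNA positions in Sample3 (orange) and Sample4 (blue), with lines for the 95% Poisson interval of the reads and open circles for values listed at 0. In Sample3 the leading copies of U2, U4 and U5 have 4112, 5321 and 807 FPKM and the lowest a few FPKM or 0, and most positions lie further right in Sample3 than in Sample4.

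U1 RNA, which recognises 5' splice sites, had moderate levels at its 3 positions, and none of them held nearly all the reads. snRNA:U1:82Eb (3R, 773655 to 773818, minus strand) had 282 FPKM in Sample3 (interval 251 to 316) and 37.2 FPKM in Sample4 (20.8 to 61.3). snRNA:U1:95Cc had 171 and 32.2 FPKM. The position shared by snRNA:U1:21D, snRNA:U1:95Ca and snRNA:U1:95Cb had 72.8 and 19.8 FPKM. In Sample3 the intervals of these 3 positions did not overlap, while in Sample4 they did, with 36 reads over the class. snRNA:U1:82Eb held 53.6% of the U1 reads in Sample3 (95% exact Clopper-Pearson interval 49.4 to 57.8%) and 41.7% in Sample4 (25.5 to 59.2%).

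For U2, which pairs with the branch point, nearly all reads lay at one copy. snRNA:U2:34ABa (2L, 13211925 to 13212116, minus strand) had 4112 FPKM in Sample3 and 1318 FPKM in Sample4, or 5162 and 623 reads. It stood at rank 35 of all genes by mean FPKM. The position of snRNA:U2:34ABb and snRNA:U2:34ABc had 50.2 and 16.9 FPKM, so that snRNA:U2:34ABa was 81.9 times higher in Sample3 and 77.9 times higher in Sample4. The share of snRNA:U2:34ABa among U2 reads was 98.6% (98.2 to 98.9%) in Sample3 and likewise 98.6% (97.3 to 99.3%) in Sample4. The other U2 positions were near the limit of detection. snRNA:U2:14B had 5 reads in Sample3 and a single one in Sample4, and snRNA:U2:38ABb had 5 reads and 0. snRNA:U2:38ABa had no read in either, which allows up to 2.39 FPKM in Sample3 and 6.35 FPKM in Sample4.

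U4 RNA, which keeps U6 inactive until the spliceosome is activated, had a single leading copy as well. snRNA:U4:39B (2L, 21215036 to 21215178, minus strand) had 5321 FPKM in Sample3 and 1366 FPKM in Sample4. At 3343 ± 2797 FPKM (SD, n = 2) it was the highest member by mean and ranked 24 among all genes, although snRNA:U12:73B was higher in Sample4, at 3178 FPKM. snRNA:U4:38AB had 440 and 88.8 FPKM, so that snRNA:U4:39B was 12.1 times higher in Sample3 and 15.4 times higher in Sample4. snRNA:U4:25F had 1 read in Sample3 and 0 in Sample4. Of the U4 reads, snRNA:U4:39B held 92.4% (91.6 to 93.1%) in Sample3 and 93.9% (91.5 to 95.8%) in Sample4.

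U5 RNA, which holds both exon ends and is shared by both spliceosomes, had reads at several copies. snRNA:U5:63BC (3L, 3090801 to 3090923, plus strand) led with 807 FPKM in Sample3 and 176 FPKM in Sample4. snRNA:U5:34A had 291 and 86.6 FPKM and snRNA:U5:23D 139 and 31.1 FPKM. Their order was the same in both libraries. In Sample3 none of their intervals overlapped. In Sample4 the lower bound of snRNA:U5:63BC, 131 FPKM, lay above the upper bound of snRNA:U5:34A, 126 FPKM, whereas those of snRNA:U5:34A and snRNA:U5:23D met, at 57.1 and 57.2 FPKM. snRNA:U5:63BC held 62.3% (59.3 to 65.3%) of U5 reads in Sample3 and 58.9% (48.0 to 69.2%) in Sample4. snRNA:U5:14B had 24 reads in Sample3 (33.5 FPKM) and 0 in Sample4, where 0 reads allow up to 11.1 FPKM. The remaining 3 copies, snRNA:U5:35D, snRNA:U5:38ABa and snRNA:U5:38ABb, had 4, 1 and 2 reads in Sample3 and 0 in Sample4.

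**Figure D2:**
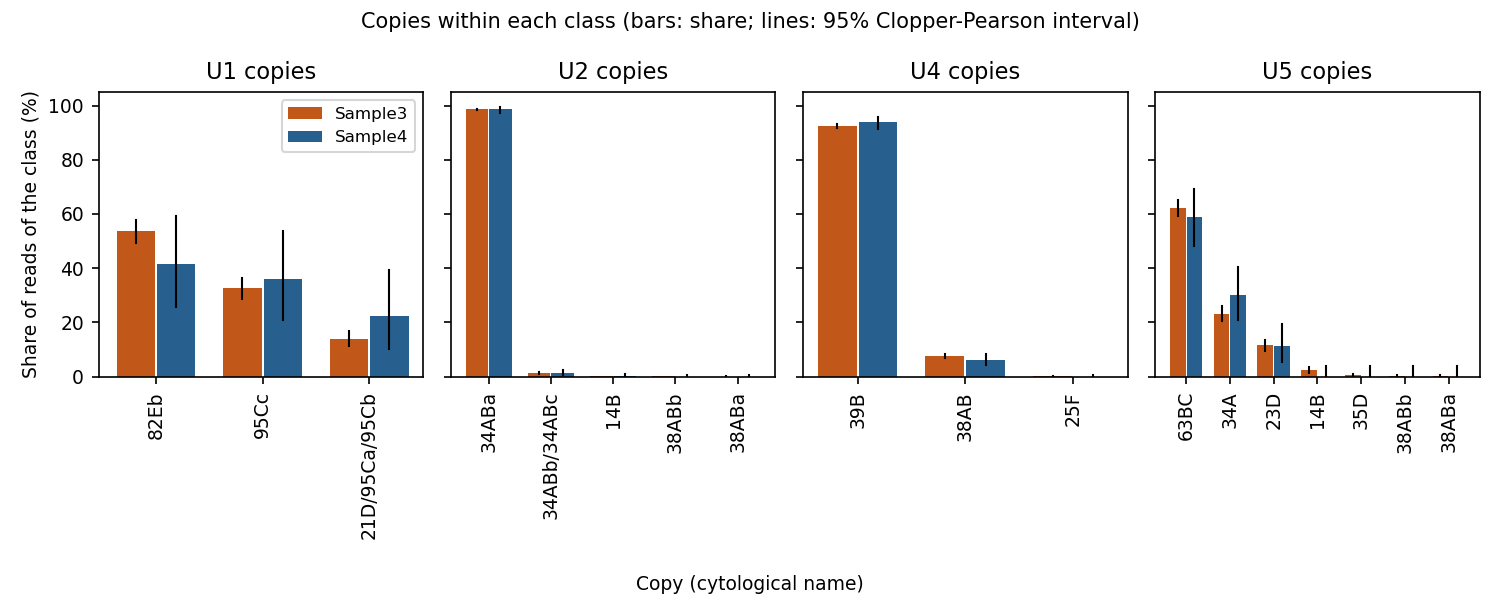
Share of the reads of a class (percent) at each position of U1, U2, U4 and U5 in Sample3 (orange, left bar) and Sample4 (blue, right bar), with 95% Clopper-Pearson intervals as lines. A single copy takes over 90% in U2 and U4, whereas U1 reads are spread over all 3 positions and U5 reads lie mostly at 3 of 7. The leading copy is the same in both libraries.

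The annotated U6 position had few reads. U6, the catalytic RNA of the spliceosome and the product of RNA polymerase III, had 10.0 FPKM in Sample3 (interval 4.04 to 20.7) and 7.62 FPKM in Sample4 (0.923 to 27.5) at the position shared by its 3 rows, from 7 and 2 reads. This position lies inside the span of Esyt2 on the same strand, and Esyt2 had 23.8 and 19.8 FPKM without these reads. The U6 position was thus at 0.422 and 0.385 times the level of the gene around it. Whether its reads came from U6 or from Esyt2 was not tested.

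The RNAs of the minor spliceosome were each encoded at 1 position and were among the higher members. snRNA:U12:73B (3L, 16646869 to 16647106, plus strand), the branch point RNA of minor introns, had 1107 FPKM in Sample3 and 3178 FPKM in Sample4. snRNA:U11 (3L, 3893056 to 3893330, minus strand), which recognises their 5' splice sites, had 1154 and 1108 FPKM. U11 was the steadiest of the high members, at 1131 ± 33.2 FPKM (SD, n = 2), and U12 the only one with a much higher value in Sample4. snRNA:U4atac:82E had 395 and 213 FPKM, and its partner snRNA:U6atac:29B had 241 and 46.3 FPKM. The ratio of U4atac to U6atac was thus 1.64 in Sample3 and 4.61 in Sample4.

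The share of snRNA reads at the minor spliceosome positions differed between the libraries, through U11 and U12. The U11, U12, U4atac and U6atac positions held 25.4% of all snRNA reads in Sample3 (24.7 to 26.0%) and 66.7% in Sample4 (65.3 to 68.2%). The 19 positions of U1, U2, U4, U5 and U6 held 71.0% (70.3 to 71.7%) and 31.3% (29.9 to 32.7%). U5, which both spliceosomes share, is counted here with the major positions. Summed FPKM of the minor positions was 2897 in Sample3 and 4545 in Sample4, and that of the major positions 11747 and 3182. U11 and U12 alone accounted for 22.1% and 64.4% of the reads. With 2 libraries of the same condition, this is spread between replicates and no comparison of conditions.

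Outside splicing, snRNA:U7 (3L, 3593823 to 3593893, plus strand), the shortest member and part of the histone pre-mRNA processing particle, had 1317 FPKM in Sample3 and 421 FPKM in Sample4. snRNA:U3:22A, the ribosomal RNA processing RNA, had 9.42 FPKM in Sample3 and 13.5 FPKM in Sample4, from 13 and 7 reads. Its intervals overlapped between the libraries.

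Copies standing side by side differed widely. In band 38A4 of 2L, 5 snRNA genes lie within 5806 bp on alternating strands, and snRNA:U4:38AB led with 408 reads in Sample3, against 31 in Sample4. The other 4 genes, snRNA:U5:38ABa, snRNA:U2:38ABb, snRNA:U2:38ABa and snRNA:U5:38ABb, had between 0 and 5 reads in Sample3 and 0 in Sample4. The 5' end of snRNA:U5:38ABa lay 1340 bp from that of snRNA:U4:38AB. In band 34A, the 5' ends of snRNA:U2:34ABa and snRNA:U2:34ABb lay 3723 bp apart and faced away from each other. In band 14B6 of the X chromosome, snRNA:U5:14B and snRNA:U2:14B were head to head with 555 bp between their 5' ends, and had 24 and 5 reads in Sample3.

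**Figure D3:**
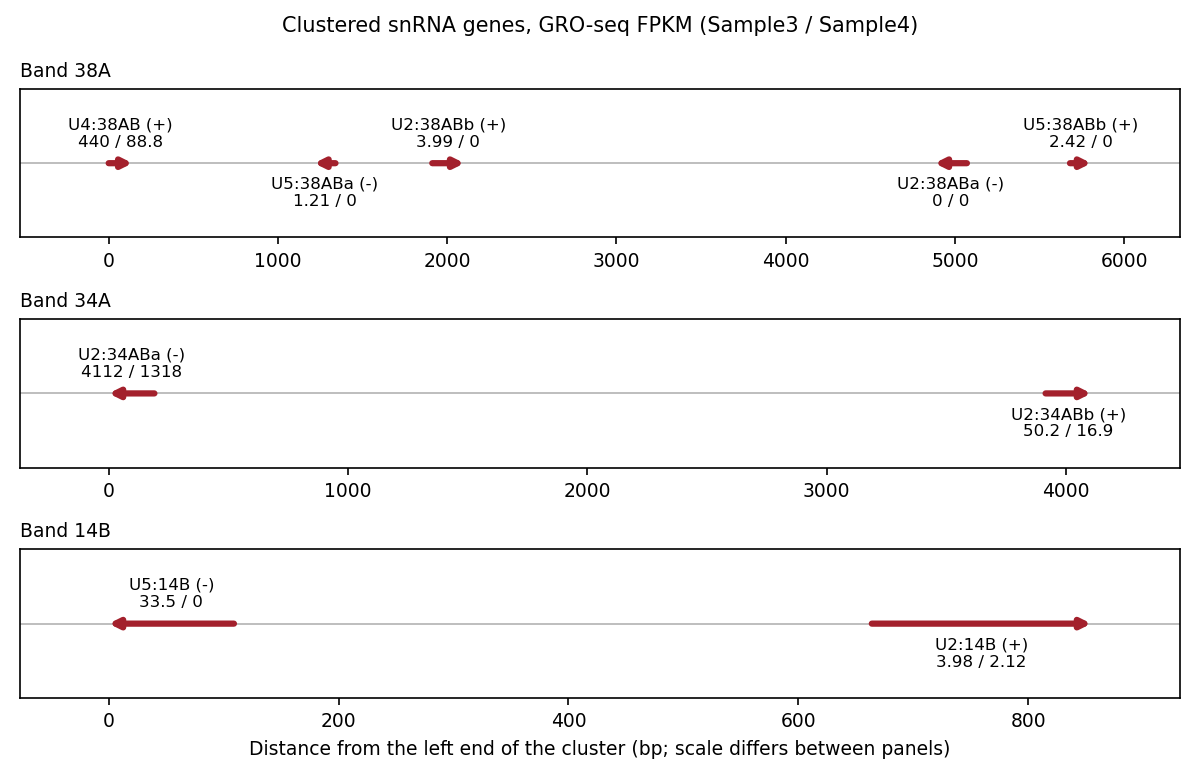
Maps of the snRNA clusters in bands 38A, 34A and 14B, with distance from the left end of each cluster in bp, arrows for the annotated genes and their direction, and the FPKM of Sample3 and Sample4 under each name. In band 38A only U4:38AB exceeds 4 FPKM, and in band 34A U2:34ABa stands far above the position of U2:34ABb.

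Called start sites marked 6 of the 25 positions (24%) within 100 bp of the annotated 5' end on the same strand, and each of the 6 had one in replicate 1. Over all genes, 24.5% had such a site in replicate 1, 14.8% in replicate 2 and 28.6% in either. The share of snRNA positions was close to the 28.6% of all genes. However, 25.2% of all genes had no reads in either GRO-seq library, against 1 of the 25 snRNA positions. Among 8888 genes with a mean of at least 1 FPKM, 50% had a site in either list. The 24% of snRNA positions covers all levels, and the share among snRNA positions of at least 1 FPKM was not computed. Over 273 snoRNA genes, also of all levels, 16.8% had a site in either list. Sites were present at 2 of 3 U4 positions, 1 of 7 U5 positions and the single positions of U11, U6atac and U7. None was called at the U1, U2, U6, U12, U4atac and U3 positions. snRNA:U4:38AB, snRNA:U6atac:29B and snRNA:U7 had a site in both lists, 3 of 25 positions (12%), against 7.84% of all genes with sites of both lists within 5 bp of each other.

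Most of these sites stood on the annotated first base. In replicate 1, 5 of the 6 sites were exactly on it, and 5.58% of 4066 genes with a site within 100 bp had it there. In dm3 these bases were 21215178 of 2L for snRNA:U4:39B, 19810734 of 2L for snRNA:U4:38AB and 8389724 of 2L for snRNA:U6atac:29B. They were 16148150 of X for snRNA:U5:14B and 3893330 of 3L for snRNA:U11. The exception was snRNA:U7, whose site lay 3 bp inside the annotated end, at 3593826 of 3L. In replicate 2, snRNA:U4:38AB and snRNA:U6atac:29B had their site on the annotated base and snRNA:U7 again 3 bp inside. That share over all genes was 5.67% in replicate 2. All 3 sites called in both lists thus lay at the same base in each.

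**Figure D4:**
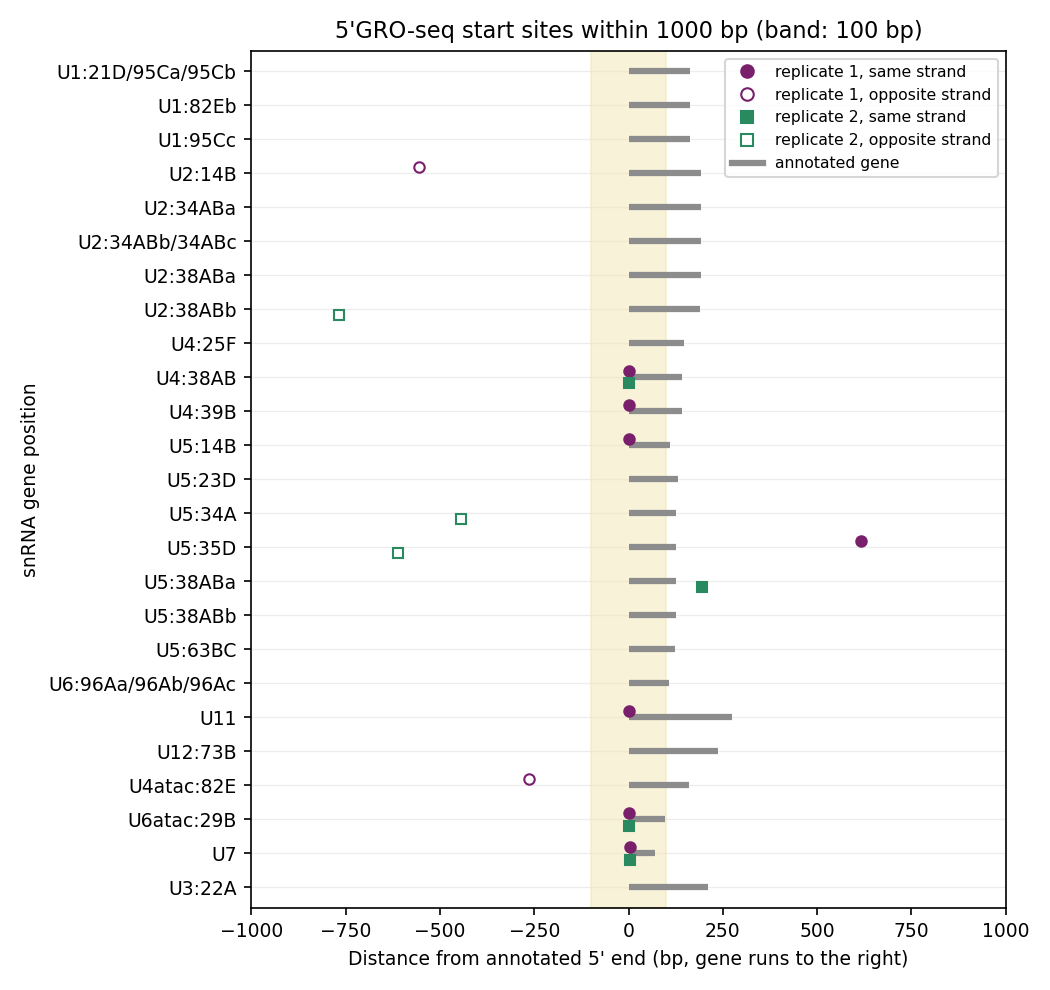
Start sites of 5'GRO-seq replicate 1 (circles) and replicate 2 (squares) within 1000 bp of the annotated 5' end of each snRNA position, filled on the gene's strand and open on the opposite strand, with a band for 100 bp and grey bars for the genes. All 6 positions with a site in the band have it at 0 or 3 bp, and no opposite-strand site falls in the band.

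The site lists carry no score, and the headers do not say by what they are ordered. In the file of replicate 1, snRNA:U4:39B was the first and snRNA:U7 the second of 6782 sites, snRNA:U11 was at place 22 and snRNA:U4:38AB at place 104. snRNA:U6atac:29B stood at place 749 and snRNA:U5:14B at place 2252. In replicate 2, snRNA:U7 was at place 25 of 9387, snRNA:U4:38AB at 636 and snRNA:U6atac:29B at 1681.

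A high GRO-seq level did not go with a called site at every position. Of the 12 positions with a mean of at least 100 FPKM, 5 had a site and 7 had none. The share with a site was not computed for all genes of that level. Among 8888 genes with a mean of at least 1 FPKM, a lower threshold, it was 50%. These counts therefore do not show whether snRNA positions differ from other genes of at least 100 FPKM. The 7 positions without a site included snRNA:U2:34ABa and snRNA:U12:73B, with means of 2715 ± 1976 and 2142 ± 1465 FPKM (SD, n = 2), and no same-strand site within 1000 bp. snRNA:U5:14B, with 33.5 FPKM in Sample3 and 0 in Sample4, had the lowest mean of the positions with a site. snRNA:U4:39B and snRNA:U11 had a site in replicate 1 alone. A call required at least 20 reads in replicate 1 and 14 in replicate 2. It also required more than 4-fold over a GRO-seq control and 4-fold over the surrounding 1000 bp. A missing call therefore does not show that no start was there. The part of these filters at the uncalled positions was not tested.

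Further sites lay around some of the snRNA genes. On the same strand, replicate 2 had a site 195 bp downstream of the 5' end of snRNA:U5:38ABa, beyond the end of this gene. Replicate 1 had one 616 bp downstream of that of snRNA:U5:35D. On the opposite strand, 2 positions had a site within 500 bp. They were snRNA:U4atac:82E at -263 bp in replicate 1 and snRNA:U5:34A at -443 bp in replicate 2, where minus means upstream of the snRNA gene. No position had an opposite-strand site within 100 bp. The shares of all genes with opposite-strand sites at these distances were not computed, so these counts do not show whether such sites are rare at snRNA genes.

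Of the 25 positions, 8 lay inside the span of another gene, 6 of them on the same strand. In Sample3 the host had at least as many reads as the nested gene in 270 of 270 pairs on the same strand, in which the nested gene had 100 reads or more, and in 109 of 131 pairs on opposite strands. Nested reads were therefore treated as counted for a same-strand host too, and the snRNA reads were taken off before host levels were computed. snRNA:U4:39B made up 70.3% of the reads of its host Atg18b, an autophagy gene, in Sample3 and 54.4% in Sample4. Without them Atg18b had 41.3 and 21.0 FPKM, against 136 and 45.2 FPKM as deposited. snRNA:U1:95Cc made up 57.4% and 24.5% of the reads of CG34355. snRNA:U7 made up 15.3% and 5.28% in Eip63E, a gene of 92798 bp, and snRNA:U4atac:82E 11.6% and 6.48% in cno, which encodes a cell junction protein. Relative to the rest of the host, the snRNA was higher in both libraries at 5 of the 6 positions. The ratio was 239 and 73.9 for snRNA:U7 and 3.91 and 2.81 for snRNA:U5:23D in v(2)k05816, and the U6 position was the one below 1. snRNA:U11 and snRNA:U12:73B lay opposite to Fie and Baldspot, which had 0.941 and 23.3 FPKM in Sample3.

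Most snRNA positions were higher in Sample3 than in Sample4. Of 18 positions with at least 1 FPKM in both, 16 were higher in Sample3, and of all genes above that level 57.7% were. The excess was over 2-fold at 12 of the 18, against 12.8% of all genes. The median log2 difference of FPKM + 1 (Sample3 minus Sample4) over these 18 was 1.69, against 2.27 over 244 snoRNA genes and 0.11 over 8417 genes. The other 2 were U12, at -1.52, and U3, at -0.47. Of the 18, U12 alone was over 2-fold higher in Sample4, against 3.86% of all genes.

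The longer snRNAs differed from the shorter ones in this respect. Over 16 positions with at least 5 reads in each library, the log2 ratio of Sample3 to Sample4 had a Spearman correlation of -0.56 and a Pearson correlation of -0.68 with span. These points share their libraries, and copies of a class share sequence and span. The 13 of these positions shorter than 200 bp all had positive log2 ratios, up to 2.92 for snRNA:U1:82Eb. Their medians showed no steady decline, at 2.01 below 100 bp, 2.16 from 100 to 150 bp and 1.76 from 150 to 200 bp. The 3 longer ones, U3, U12 and U11, stood at -0.52, -1.52 and 0.06, and U3 rested on 13 and 7 reads. Without U11 and U12 the correlations were -0.35 and -0.45 over 14 positions. Over 216 snoRNA genes Spearman's correlation was -0.22. The median log2 ratio was 2.40 for 89 snoRNA genes shorter than 100 bp and 0.50 for 5 of at least 200 bp. None of these 5 was higher in Sample4. Final libraries were selected by size, per the labels, and whether this step differed between the libraries was not tested.

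**Figure D5:**
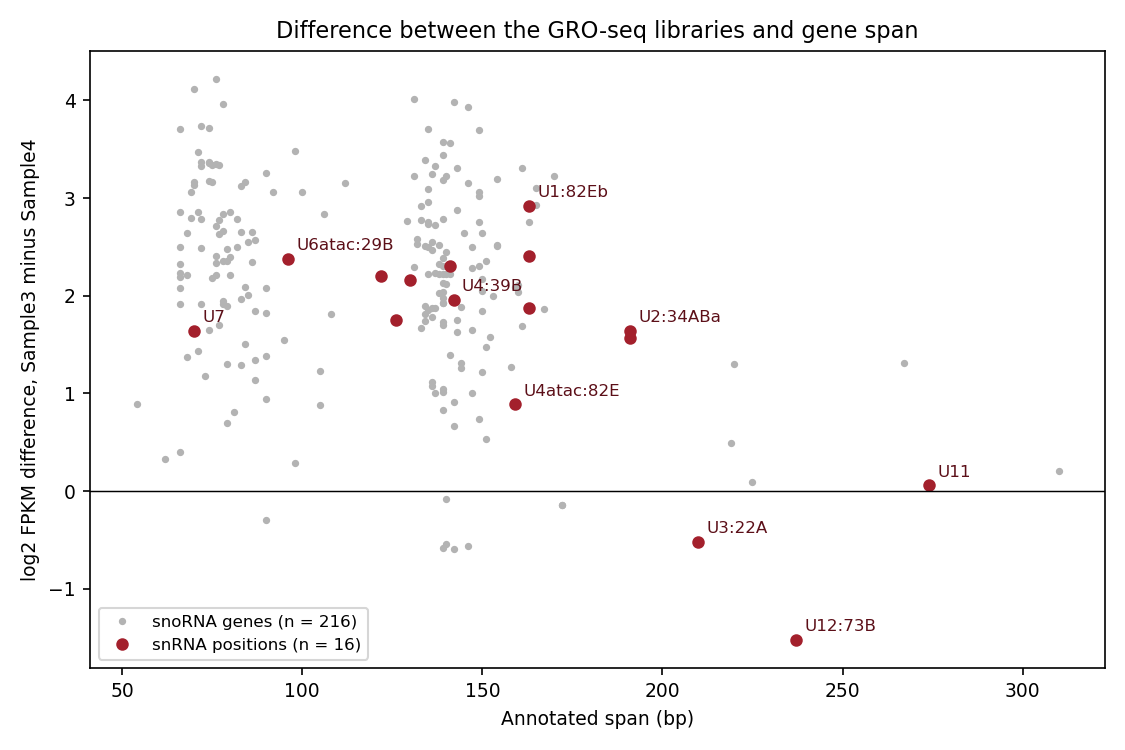
Log2 FPKM difference between the GRO-seq libraries (Sample3 minus Sample4) against annotated span in bp for 16 snRNA positions (red) and 216 snoRNA genes (grey), each with at least 5 reads in both libraries. snRNA positions under 200 bp lie between 0.89 and 2.92, and the 3 longer ones lie near or below 0.

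By mean FPKM, protein genes that act on snRNAs lay within a narrower range than the snRNA positions and below the leading copies of U1, U2, U4 and U5. In Sample4 alone this order held for U2, U4 and U5 but not for U1. There snRNA:U1:82Eb had 37.2 FPKM, below La (58.9 FPKM), snRNP-U1-70K (46.7 FPKM), TfIIA-S (42.7 FPKM) and U2af38 (39.2 FPKM). Of 11 names of snRNA promoter and polymerase factors 9 were found in the table by symbol, and all 9 had at least 1 FPKM, from Pbp95, a subunit of the complex on the proximal sequence element, with 3.78 ± 0.684 FPKM to TfIIA-S with 49.2 ± 9.20 FPKM (SD, n = 2). The 12 genes found of Integrator, the complex that cleaves snRNA 3' ends, lay between 5.62 ± 2.90 FPKM for IntS10 and 30.2 ± 2.23 FPKM for IntS11 (SD, n = 2). The 8 maturation and assembly genes reached from Lsm11, part of the U7 particle, with 2.57 ± 2.02 FPKM to La, an RNA 3' end binding protein, with 47.2 ± 16.6 FPKM (SD, n = 2). The 7 genes of snRNP and U2 auxiliary proteins lay between 11.6 ± 2.68 FPKM for U2af50 and 41.6 ± 3.40 FPKM for U2af38 (SD, n = 2). A start site in either list was called at 6 of 9, 7 of 12, 5 of 8 and 3 of 7 of these genes, and at 50% of 8888 genes with a mean of at least 1 FPKM. Higher values in Sample3 than in Sample4 were present at 6 of 9, 9 of 12, 4 of 8 and 3 of 7 of them, against 57.7% of all genes of at least 1 FPKM in both.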

How the data were processed

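Per the file headers, the authors used HOMER's TSS mode to call start sites, separately for each 5'GRO-seq library with a GRO-seq library as control, at an FDR of 0.001 and 4-fold over control and over the surrounding 1000 bp. The score column of the deposited site lists is a constant. GRO-seq FPKM were deposited by the authors. The tools named in the submitters' processing notes are HOMER 4.7, Bowtie2 2.1.0 and CASAVA 1.8.2, and the build is dm3; settings are not given there.

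A site was the centre of its interval and counted at a gene within 100 bp of the 5' end on the same strand. FPKM multiplied by span were whole multiples of one step in 99.95% of 4121 and 99.94% of 3380 low values (Sample3, Sample4; tolerance 0.1 read), which gave reads and totals. The recovery of totals and site offsets was checked on simulated data. Differences used log2(FPKM + 1), which understates low genes, except that ratios set against span used log2 of FPKM with no pseudocount, at 5 or more reads in both libraries. With 1 condition and 2 libraries per assay no test was made, and genes are not replicates. All members are named. They and the lists were chosen with earlier results of these data known. Promoter and RNA sequences were not analysed here. Computation used pandas 2.3.3, numpy 2.4.6, matplotlib 3.10.9 and scipy 1.17.1 under Python 3.11.15.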

Additional observations from a re-analysis of the deposited data

How the results depend on the processing

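The 6 rows with a site at the 5' end were also found within 50 bp or by overlap of the site with the first base, and 7 within 250 or 500 bp, where snRNA:U5:38ABa was added. With a single list the number was 3 to 6, the 3 of replicate 2 being snRNA:U4:38AB, snRNA:U6atac:29B and snRNA:U7. Sites of both lists numbered 3 at 0, 5 and 20 bp. The median FPKM over the 30 rows was 46.3 as the mean of the libraries and 19.8 to 72.8 in a single library. It was 102 over the 23 rows of at least 1 FPKM in both, which leaves out low copies by construction, and 85.2 over the 25 positions, a count chosen after seeing that rows share positions. The median log2 difference (Sample3 minus Sample4) over the 30 rows was 1.69 and stayed between 1.16 and 1.87 under other pseudocounts, the filter at 1 FPKM, rescaling to protein-coding genes and distinct positions. No paired analysis was possible because the GRO-seq columns carry no replicate number and no groups were contrasted. Depth limits the low copies: 7 positions were at 0 in Sample4, where 3 reads correspond to 6.35 to 11.1 FPKM.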
